A study of Mus musculus with 9 samples.

Results

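The microRNAs carried by small extracellular vesicles in the serum of chow-fed wild-type mice were described from 3 of the 9 libraries of the study. The study as a whole asks about vesicle microRNAs of adipocyte origin, miR-30a-3p above all, in fatty liver of male mice on a high fat diet, and its other 6 libraries come from mice on that diet. The 3 libraries were chosen by their labels alone (genotype wild type, treatment chow), and the other 6 were used only to find microRNAs whose counts are identical throughout. Per the protocols, a commercial exosome isolation reagent was added to serum overnight and the vesicles were spun down and taken up in PBS, so that anything else in serum that the reagent pellets may be in the preparation. All 3 libraries carry the same batch label. Age is not given, and the labels give separate samples without stating separate animals, so the spread between chow 1, chow 2 and chow 3 may be technical. Of 1169 microRNAs in the count table, 692 had at least 1 count in these libraries. There is no contrast within a single group, so no test was made, and each value is given with its SD over the 3 libraries.

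MicroRNAs are short RNAs cut from a hairpin precursor, whose left and right sides give the 5p and the 3p arm. As a rule 1 arm is loaded into an Argonaute protein while the other is degraded, and the loaded arm finds target mRNAs mainly through its seed, bases 2 to 8 from the 5′ end. Cells release some of their microRNAs in vesicles, and blood cells, endothelium, liver and other tissues all add to the pool in serum.

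The sequences below are abundant microRNAs matched by name in RefSeq (GRCm38.p6), each beside lower members of its seed family, and last the arm pair that the study's title concerns. They are shown because a few of them carry most of the counts and because relatives with the same seed differ greatly in level. Each is written 5′ to 3′, with the seed in capitals. miR-486a-5p and miR-486b-5p, also among the most abundant, are named only.
miR-16-5p: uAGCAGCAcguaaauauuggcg
miR-15a-5p: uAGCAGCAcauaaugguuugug
miR-15b-5p: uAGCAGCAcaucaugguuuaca
miR-451a: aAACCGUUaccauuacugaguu
miR-93-5p: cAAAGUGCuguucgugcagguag
miR-17-5p: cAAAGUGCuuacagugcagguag
miR-20a-5p: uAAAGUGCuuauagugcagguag
miR-106b-5p: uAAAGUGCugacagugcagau
let-7i-5p: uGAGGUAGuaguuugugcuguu
let-7f-5p: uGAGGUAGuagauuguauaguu
let-7a-5p: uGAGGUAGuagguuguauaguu
let-7g-5p: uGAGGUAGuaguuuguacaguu
miR-140-3p: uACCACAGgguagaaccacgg
miR-191-5p: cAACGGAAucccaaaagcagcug
miR-21a-5p: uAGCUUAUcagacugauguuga
miR-29a-3p: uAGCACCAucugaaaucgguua
miR-126a-3p: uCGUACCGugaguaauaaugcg
miR-25-3p: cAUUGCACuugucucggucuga
miR-92a-3p: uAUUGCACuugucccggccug
miR-30a-5p: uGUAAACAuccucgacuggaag
miR-30a-3p: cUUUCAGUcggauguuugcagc

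The libraries were shallow and alike in depth. They held 306974 counts in chow 1, 293189 in chow 2 and 225002 in chow 3. A microRNA with at least 1 count was found 538, 547 and 481 times, a mean of 522 ± 35.8 (SD, n = 3). Of the 692 microRNAs detected in any library, 396 were present in all 3 and held 99.9% of the counts. A further 82 were present in 2 libraries and 214 in a single library, and none of those 214 had more than 6 counts. The other 477 microRNAs of the table had 0 counts, which allows a level of up to 3.64 CPM (counts per 1000000 counts of the library) over the group, taking 3 counts as the floor. Such floors cover counting error only, because amplified reads without molecular identifiers are not independent molecules. Levels of different microRNAs were compared as shares of counts. Mature microRNAs are of nearly the same length, so no length term was needed, but differences in how well each sequence is captured in a library are not corrected.

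A handful of microRNAs made up most of the cargo. In each library 8 microRNAs held 50% of the counts, and 53, 55 and 53 held 90%. Over the mean of the libraries the first 10 held 57.5%, the first 20 held 73.9%, and the first 159 held 99%. Only 19 microRNAs averaged at least 10000 CPM, while 85 reached 1000 CPM and 185 reached 100 CPM.

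**Figure D1:**
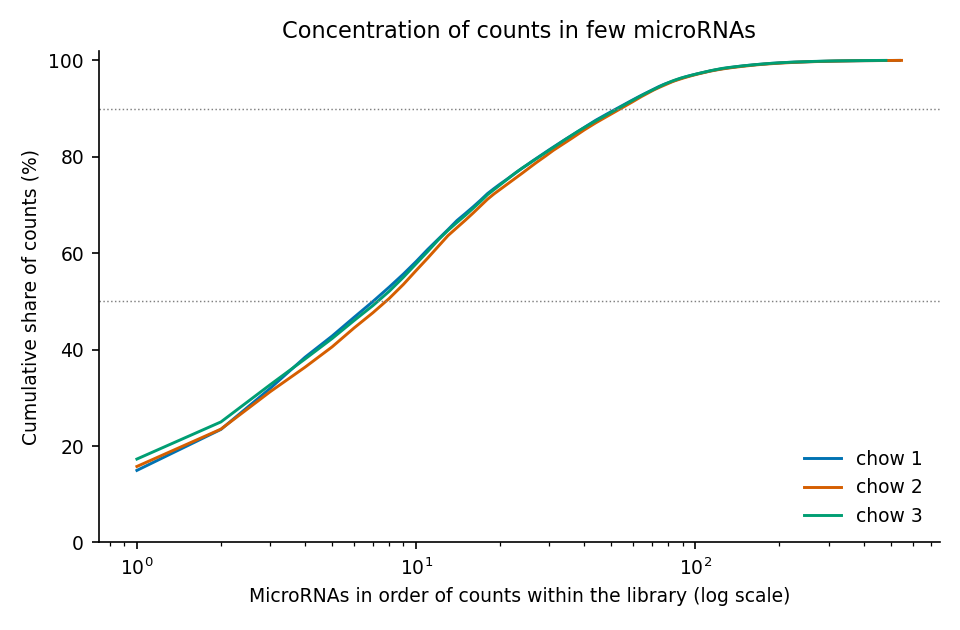
Cumulative share of counts (%, vertical axis) against the order of microRNAs by their counts within each library (log scale), with 1 line per chow-fed library. The 3 lines nearly coincide and cross 50% at 8 microRNAs in each library and 90% at 53 to 55.

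The leading microRNA was miR-16-5p, a repressor of cell cycle genes that is abundant in blood cells. It took 14.9% of counts in chow 1, 15.8% in chow 2 and 17.3% in chow 3, a mean of 16.0% ± 1.20 (SD, n = 3). It ranked first in all 3 libraries. Its lowest library lay well above the highest value of any other microRNA, with miR-486a-5p and miR-486b-5p each taken alone. Its 5p sequence comes from more than 1 hairpin, with Mir16-1 at chr14:61631880-61631972 on the minus strand in an exon of the noncoding gene Dleu2, and Mir16-2 at chr3:69009902-69009996 in an intron of Smc4 (GRCm38.p6; host genes from GENCODE M21). Reads of the 5p arm cannot be assigned to either.

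The next place was shared by miR-486a-5p and miR-486b-5p, which are abundant in red cells. Both had the same count in every library, 26107 in chow 1, 22725 in chow 2 and 17339 in chow 3, or 7.99% ± 0.449 each. Together they held 16.0% ± 0.897 of the total, and if the same reads were entered for both, the pair held 8.71% of a total that counts them once. If reads were divided between them instead, the 16.0% would stand, level with the mean of miR-16-5p. Which was done is not known. In all 9 libraries of the study and with at least 20 counts, there were 9 such sets of identical counts, covering 18 microRNAs and 16.5% of the chow counts, nearly all of it in this pair. miR-101a-3p and miR-101c, of which 1 sequence lies inside the other, had the same 761, 709 and 501 counts on chow, and miR-374b-5p and miR-374c-5p the same 18, 16 and 20. They are not among the 9 sets because their values differ slightly in another library.

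miR-451a, which is cut by Argonaute2 in place of Dicer and is required for normal red cell maturation, took 6.46%, 5.09% and 5.34% of counts (5.63% ± 0.730). Its hairpin lies at chr11:78073170-78073241. In every library it stood below miR-486a-5p and above the microRNAs that followed. miR-93-5p and let-7i-5p came next. The former, of the cell cycle-linked miR-17 family, took 3.91%, 4.21% and 4.24%, a mean of 4.12% ± 0.185. The latter, of the let-7 family of differentiation regulators, took 4.40%, 3.95% and 3.76%, a mean of 4.04% ± 0.327. Their order was not fixed, since let-7i-5p was the higher in chow 1 and miR-93-5p in chow 2 and chow 3.

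A group of 6 microRNAs lay between 2.14% and 3.26% of counts in every library. miR-140-3p, best known from cartilage, averaged 3.11% ± 0.167, and miR-191-5p, a broadly expressed blood microRNA, averaged 2.99% ± 0.0786. let-7f-5p averaged 2.83% ± 0.104 and miR-21a-5p, which is raised in many settings of inflammation and growth, 2.82% ± 0.180. The last of these pairs changed order between libraries, with let-7f-5p the higher in chow 1 and chow 2 only. miR-29a-3p, a repressor of collagen genes, averaged 2.49% ± 0.0842, and the endothelial miR-126a-3p averaged 2.37% ± 0.204. The hairpin of miR-21a lies at chr11:86584067-86584158 in an exon of Vmp1, and that of miR-126a at chr2:26591357-26591429 in Egfl7, a gene of endothelial cells.

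With the miR-486 pair taken as a single place, the rest of the first 20 ranged from 2.06% ± 0.150 for let-7a-5p to 0.939% ± 0.0427 for miR-192-5p. In between, miR-25-3p averaged 1.63% ± 0.221, miR-6240 1.52% ± 0.111, let-7c-5p 1.50% ± 0.135, let-7b-5p 1.42% ± 0.0682 and miR-26a-5p 1.39% ± 0.0204. Values for miR-103-3p, which is linked to insulin sensitivity, were 1.05%, 1.11% and 1.00%, and those for the blood cell microRNA miR-142a-3p were 0.856%, 0.963% and 1.06%. The order of some neighbours here was within their spread, as for miR-6240 and let-7c-5p, but miR-26a-5p exceeded miR-103-3p in every library.

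**Figure D2:**
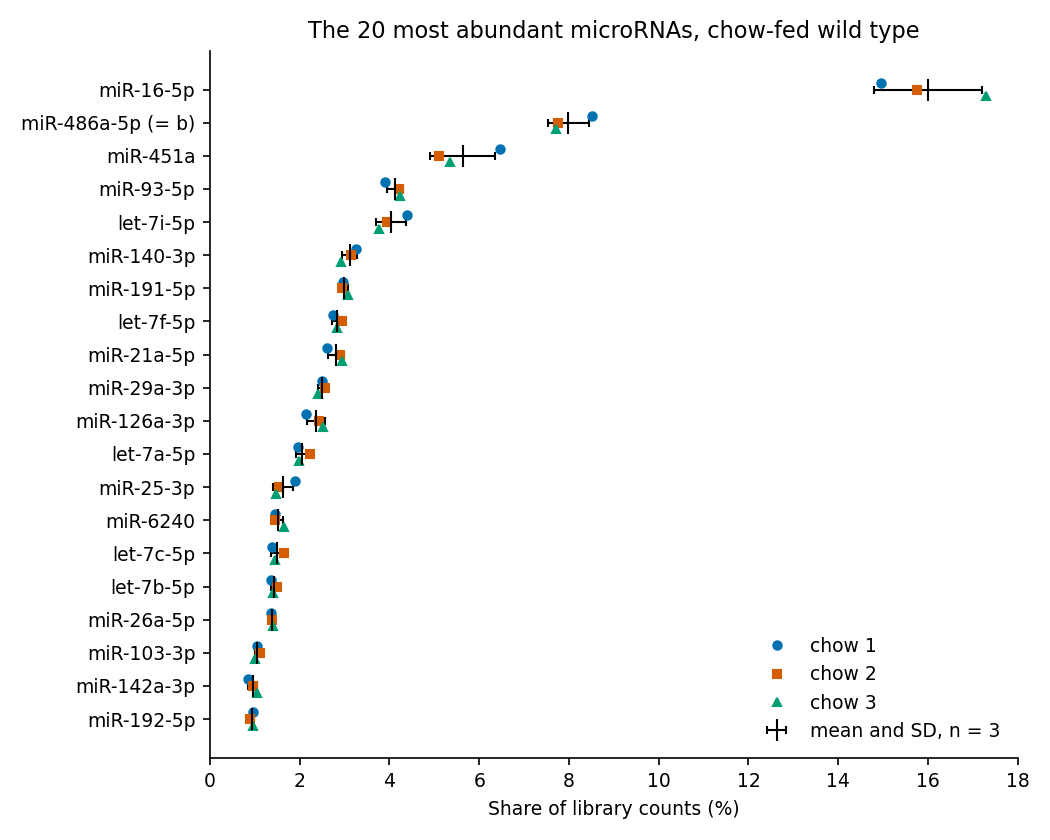
Share of library counts (%, horizontal axis) of the most abundant microRNAs, with a point for each chow-fed library and a bar for the mean and SD (n = 3); miR-486a-5p stands for the pair with identical counts. miR-16-5p sits at 14.9 to 17.3%, and every microRNA from miR-93-5p down lies at or below 4.40%.

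The microRNA in the study's title was a minor species on chow. miR-30a-3p had 226, 214 and 151 counts, or 0.0712% of the total, and ranked 96. Its partner miR-30a-5p had 1846, 2063 and 1450 counts, or 0.650% ± 0.0514, and ranked 27. The 5p arm exceeded the 3p arm 8.17-fold in chow 1, 9.64-fold in chow 2 and 9.60-fold in chow 3 (mean 9.14 ± 0.839). Both arms come from the hairpin Mir30a at chr1:23272269-23272339, which overlaps no other gene on its strand. As the sequences above show, the arms have different seeds, so the 3p arm has its own set of candidate targets.

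The microRNAs were then grouped by seed. Of 652 known microRNAs detected, 558 had a RefSeq mature sequence. These 558 held 78.5% of the counts and fell into 472 seed families, of which 51 had more than 1 detected member. The 5 largest families held 42.1% of all counts and the 10 largest 55.3%. MicroRNAs without a sequence are missing from these sums and from the order of families. The largest of them by far are the miR-486 pair, and their 16.0% together, or 8.71% counted once, would place them among the first 3 families.

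Most large families were dominated by a single member. The family with the seed AGCAGCA had 6 members and held 16.3% ± 1.18 of counts, and miR-16-5p supplied 98.0% of that. miR-16-5p exceeded miR-15a-5p 208 ± 9.83-fold and miR-15b-5p 108 ± 15.2-fold, although they share the seed and differ from it at 6 and 8 of 22 positions. The AAAGUGC family, that of miR-17, also had 6 members and held 4.40% ± 0.217, of which miR-93-5p supplied 93.7%. Its relative miR-20a-5p had 601, 739 and 540 counts, miR-17-5p had 52, 62 and 47, and miR-106b-5p had 13, 28 and 4, against 12004, 12353 and 9550 for miR-93-5p. miR-93-5p differs from miR-17-5p at 4 of 23 positions, which reads of full length resolve. In the AGCACCA family, miR-29a-3p supplied 84.7% of a total of 2.94% ± 0.109. miR-25-3p supplied 77.7% of the AUUGCAC family (2.10% ± 0.177), 3.56 ± 0.866 times the level of miR-92a-3p.

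The let-7 family was spread over several members. Its seed, GAGGUAG, was shared by 9 members that held 12.6% ± 0.448 of counts. let-7i-5p supplied 31.9% of the family, and let-7f-5p, let-7a-5p, let-7c-5p and let-7b-5p ranged from 2.83% down to 1.42% of the total. Lower members were let-7d-5p at 0.474%, let-7g-5p at 0.231%, let-7e-5p at 0.0746% and miR-98-5p at 0.0184%. let-7a-5p and let-7f-5p differ at a single position, so sequencing error or loose matching could move reads between them, but the family total is free of this. The miR-30 seed GUAAACA was likewise spread, with miR-30a-5p supplying 44.6% of the 1.46% ± 0.0354 held by its 4 members with a sequence. miR-30d-5p (1609, 1779 and 1243 counts) and miR-30b-5p (192, 161 and 155) had no matched sequence and are left out. The whole miR-30 family therefore held more than this, and miR-30a-5p a smaller part of it. miR-10a-5p and miR-10b-5p, which also differ at 1 position, held 1.14% together.

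**Figure D3:**
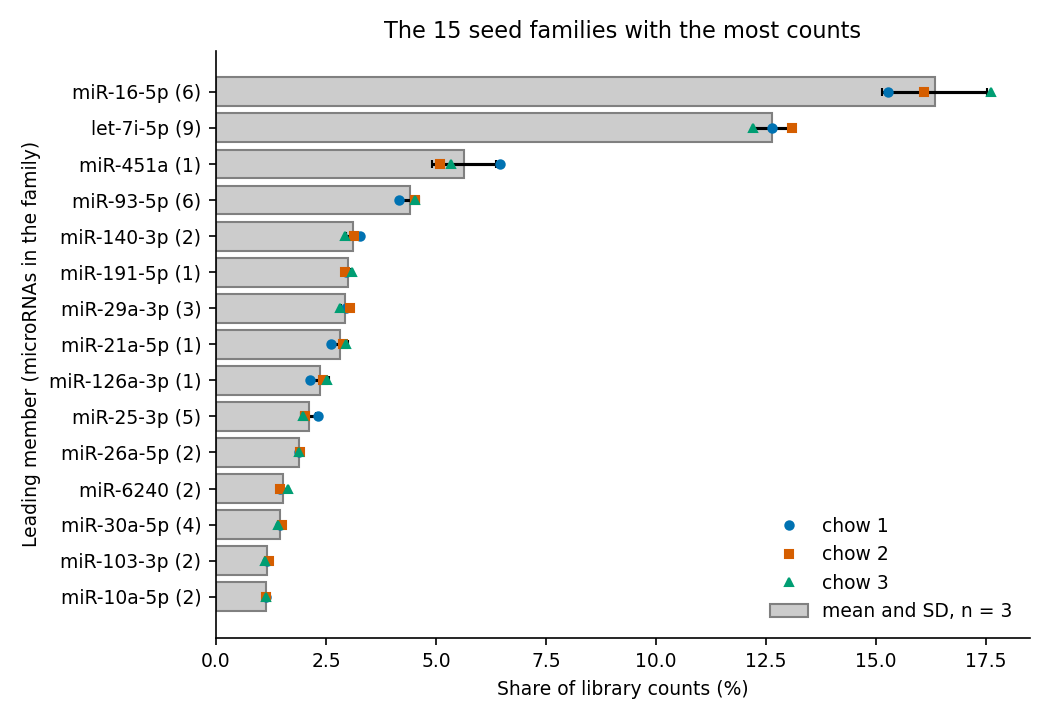
Share of library counts (%, horizontal axis) of the 15 seed families with the most counts, named by their leading member with the number of detected members in parentheses; bars are means, whiskers SD (n = 3) and points the chow-fed libraries. The miR-16-5p family (16.3%) and the let-7 family (12.6%) stand above the others drawn; microRNAs with no sequence matched, the miR-486 pair among them, are not included.

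Arm use was decided strongly for most precursors. By name, 5p arms held 69.0% ± 0.581 of counts, 3p arms 22.6% ± 0.436 and microRNAs without an arm in their name, such as miR-451a, 8.28% ± 0.711. Without the miR-486 pair these shares were 63.1%, 26.9% and 9.86%. Both arms were in the table for 296 precursors, and 146 of them had at least 30 counts. Arms were paired by name, so microRNAs whose 3p arm carries a locus number, miR-16-5p among them, were left out. The 146 held 62.8% of counts, and miR-486a and miR-486b, with identical counts, were each entered. The 5p arm was the more abundant in 86 and the 3p arm in 60. The more abundant arm supplied a median of 98.2% of a precursor's counts. It supplied more than 99% in 61 precursors, more than 90% in 112 and less than 75% in only 12. Among the 60 precursors with at least 1000 counts, 53 gave more than 90% of their counts from 1 arm, 32 of the 60 favouring the 5p and 28 the 3p arm.

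The hairpins below, from RefSeq (GRCm38.p6), show precursors in which both arms were counted in quantity or in which the more abundant arm departs from that of its relatives. The more abundant arm is in capitals, and the other arm lies on the opposite side of the loop.
miR-142a: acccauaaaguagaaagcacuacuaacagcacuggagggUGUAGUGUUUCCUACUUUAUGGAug
miR-30a: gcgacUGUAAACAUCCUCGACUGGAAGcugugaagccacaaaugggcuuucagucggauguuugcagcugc
miR-17: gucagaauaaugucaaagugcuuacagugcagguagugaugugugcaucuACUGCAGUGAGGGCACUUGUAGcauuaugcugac
miR-106b: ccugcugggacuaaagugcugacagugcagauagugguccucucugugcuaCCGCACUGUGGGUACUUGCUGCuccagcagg
miR-93: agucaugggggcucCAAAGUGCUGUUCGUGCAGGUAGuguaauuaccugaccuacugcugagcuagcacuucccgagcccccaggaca
miR-144: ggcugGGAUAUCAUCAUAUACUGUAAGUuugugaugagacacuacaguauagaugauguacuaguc

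The most even of the deeply counted precursors was miR-142a, a microRNA of all blood cell lineages, at chr11:87756864-87756927 in an intron of Mir142hg. Its 5p arm had 2610, 2307 and 1746 counts and its 3p arm 2627, 2823 and 2374. The 5p share was 49.8% in chow 1, 45.0% in chow 2 and 42.4% in chow 3, a mean of 45.7% ± 3.79, so that the arms were level in chow 1 and the 3p arm led in the other libraries. Both arms were abundant, at ranks 20 and 23.

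Next in evenness were miR-423 with 77.2% ± 1.35 from the 5p arm and let-7d with 78.1% ± 2.97. miR-126a gave 82.8% from the 3p arm and miR-199a 88.9%. The 3p arm of miR-199a has the same sequence and counts as that of miR-199b, so its reads cannot be assigned to either and the share rests on entering them for both. The let-7d value stands out within its family, since let-7i gave 99.9% from its 5p arm. miR-30a, with 90.1% ± 0.862 from the 5p arm, was the eighth most even of the 60.

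Hairpins of the same transcript could differ in arm. miR-93, miR-106b and miR-25 lie together on the minus strand within Mcm7, a gene of the DNA replication licensing complex, at chr5:138165523-138165610, chr5:138165737-138165818 and chr5:138165321-138165404. miR-93 gave 99.5% of its counts from the 5p arm. miR-106b, whose 5p arm has the same seed, gave 98.1% from the 3p arm, with 833, 789 and 650 counts against 13, 28 and 4. miR-25 gave 99.4% from the 3p arm. miR-17, of the related cluster in Mir17hg at chr14:115043671-115043754, gave 86.0% from the 3p arm and 14.0% ± 0.695 from the 5p arm. In miR-144, the neighbour of miR-451a at chr11:78073005-78073070, the 5p arm supplied 87.2% ± 0.738, with 752, 615 and 581 counts against 118, 89 and 80 for the 3p arm.

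At the other extreme, 5 precursors with at least 1000 counts had none from the minor arm. These were miR-328, miR-27b, miR-206 and miR-101b, with the 3p arm alone, and miR-20a, with the 5p arm alone. The floor of 3 counts still allows a minor arm of up to 0.251% for miR-328, which had the fewest counts of the 5, and 0.160% for miR-20a. miR-26b (99.98% from the 5p arm), miR-191 (99.96%) and miR-146a (99.95%) completed the 8 most uneven. The more abundant arm changed between libraries in 5 precursors, miR-18a, miR-1306, miR-712, miR-664 and miR-700, none of which had more than 61 counts in all.

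**Figure D4:**
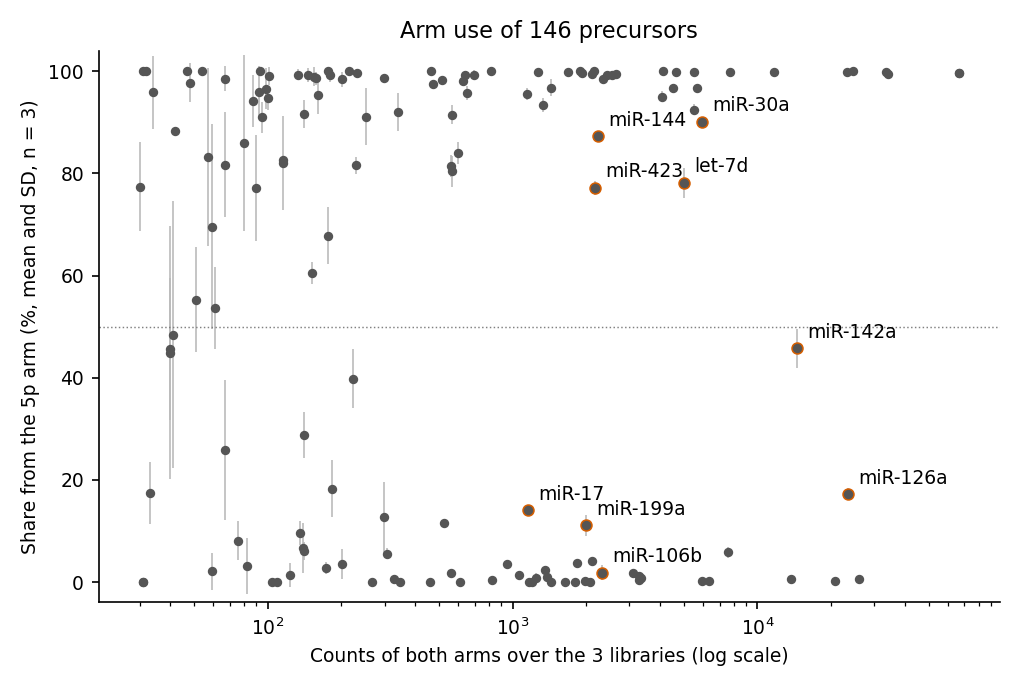
Share of each precursor's counts from its 5p arm (%, vertical axis; mean and SD, n = 3) against the counts of both arms over the 3 chow-fed libraries (log scale) for 146 precursors, with the dotted line at 50%. Most points lie near 0 or 100%; miR-142a (45.7%) is the most even of those with over 1000 counts, and SDs widen to the left, where counts are few.

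Known tissue markers were counted next, as lists of microRNAs that background knowledge places mainly in a given tissue or cell type. The lists say where these microRNAs are enriched, and the counts do not show which cells released the vesicles. A list's share can be lower because fewer vesicles came from a source or because each held less RNA, and these cannot be told apart in bulk serum. Of the microRNAs in these lists that were also in the table, 88 were detected and 28 had 0 counts. Together the lists held 34.2% ± 1.27 of counts. The other 65.8% fell on microRNAs in none of these lists, led by miR-16-5p, miR-93-5p and let-7i-5p.

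Markers of red cells led by a wide margin. The 7 erythroid members held 23.8% of counts in chow 1, 20.9% in chow 2 and 21.1% in chow 3 (21.9% ± 1.63), and all 7 were detected. miR-486a-5p, miR-486b-5p and miR-451a made up most of it. Counting the identical miR-486 reads once gave 15.2%. Leaving miR-486a-5p and miR-486b-5p out of both the list and the total gave 7.09%, so the size of the share rests largely on this pair. Serum studies compare miR-451a with miR-23a-3p as an index of red cell rupture. Limits set there by other methods or on a log scale do not apply to a linear ratio of counts. The linear ratio of miR-451a to miR-23a-3p counts was 8.92 in chow 1, 6.93 in chow 2 and 7.78 in chow 3 (7.88 ± 0.998). Chow 1 was the highest both in this ratio and in the erythroid share, and miR-451a enters both. Whether the red cell microRNAs were in vesicles or came from broken cells was not tested.

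Markers of other blood cells and of vessels had smaller shares. The endothelial miR-126a arms held 2.86% ± 0.244, with the 3p arm at 21373, 24298 and 25289 CPM, while miR-126b-3p had 0 counts. The miR-142a arms, common to blood cell lineages, held 1.76% ± 0.0635. The lymphocyte list held 0.671% ± 0.00589, the smallest relative spread of any list, led by miR-150-5p at 3017, 3326 and 3258 CPM and miR-342-3p at 2528, 2527 and 2431 CPM. Its member miR-155-3p had 0 counts. miR-223-3p, of neutrophils, monocytes and platelets, was at 2280, 2640 and 2489 CPM, and its list held 0.257% ± 0.0180.

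Liver markers were present at levels that varied more. miR-122-5p, the dominant microRNA of hepatocytes, was at 6466 CPM in chow 1, 8510 in chow 2 and 4484 in chow 3, and made up nearly all of the hepatocyte share of 0.649% ± 0.202. The highest of these libraries was 1.90 times the lowest. Its 3p arm had 1, 5 and 0 counts. By contrast miR-192-5p, shared by liver, gut and kidney, stayed at 9574, 8902 and 9693 CPM, and its list held 1.03% ± 0.0352. miR-194-5p, which is transcribed with miR-192, was at 870, 825 and 671 CPM.

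The adipocyte list held 0.979% ± 0.0391, of which miR-378a-3p alone supplied 88.5%. miR-378a-3p, linked to energy metabolism and also expressed in muscle and liver, was at 8457, 8295 and 9235 CPM. The remaining members were low, miR-378a-5p at 554, 597 and 444 CPM, miR-365-3p at a mean of 438 CPM and miR-335-5p with 40, 36 and 20 counts. miR-193b-3p, which promotes brown fat differentiation, had 5, 8 and 1 counts, and miR-365-1-5p had 0.

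Striated muscle markers held 1.01% ± 0.0526. miR-133a-3p was at 4235, 3861 and 3649 CPM and miR-1a-3p at 3753, 3742 and 3178 CPM, both of which are found in heart and skeletal muscle. miR-206-3p, typical of skeletal muscle, had 585, 603 and 444 counts, so that miR-1a-3p exceeded it 1.80 ± 0.180-fold. The heart-enriched miR-208a-3p and miR-208b-3p had 0 counts, which allows up to 3.64 CPM over the group, and miR-499-5p had 1 count. miR-133b-5p and miR-206-5p were also at 0.

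Epithelial and stromal markers lay at similar levels. The miR-200 family held 1.17% ± 0.0447 and all 9 of its members were detected. miR-429-3p led it with 1713, 1834 and 1314 counts, above miR-200a-3p (1239, 1142 and 900) and miR-200b-3p (347, 426 and 278), although all 3 belong to a single cluster. The stroma and smooth muscle list held 1.14% ± 0.116, led by miR-143-3p at 3655, 4386 and 2867 CPM and miR-145a-5p at 2922, 2561 and 3373 CPM. That pair, also made from a single transcript, changed order, with miR-145a-5p the higher in chow 3 only. The list of squamous epithelium and skin held 0.332% ± 0.0542, led by miR-205-5p at 1994, 2244 and 1840 CPM and miR-203-3p at 1173, 1675 and 1022 CPM.

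Markers of brain and of endocrine and sensory tissue were scarce. The brain list held 0.389% ± 0.0491, with 13 of 20 members detected, but 73.3% of it was miR-128-3p, which is also expressed outside the brain. miR-9-5p, typical of neural tissue, was at 544, 897 and 391 CPM. miR-124-3p, the most neuron-restricted member, had 3, 22 and 6 counts, and miR-137-3p had 5, 17 and 5. The sensory epithelium list held 0.0306% ± 0.00575, led by miR-182-5p with 38, 64 and 34 counts and miR-183-5p with 33, 31 and 29. The list of kidney and pigment epithelium held 0.0185% ± 0.00344, with miR-204-5p at 42, 56 and 47 counts and miR-211-5p at 2, 1 and 1. The islet marker miR-375-3p had 33, 27 and 40 counts, and the pancreatic acinar microRNAs miR-216b-5p and miR-217-5p had 0, with a single count for miR-216a-5p. The testis list, an X-linked cluster, was close to empty as well, with 1 count in all, in miR-741-3p. The remaining list, of embryonic stem cell microRNAs, had no member in the table and was not analysed here.

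**Figure D5:**
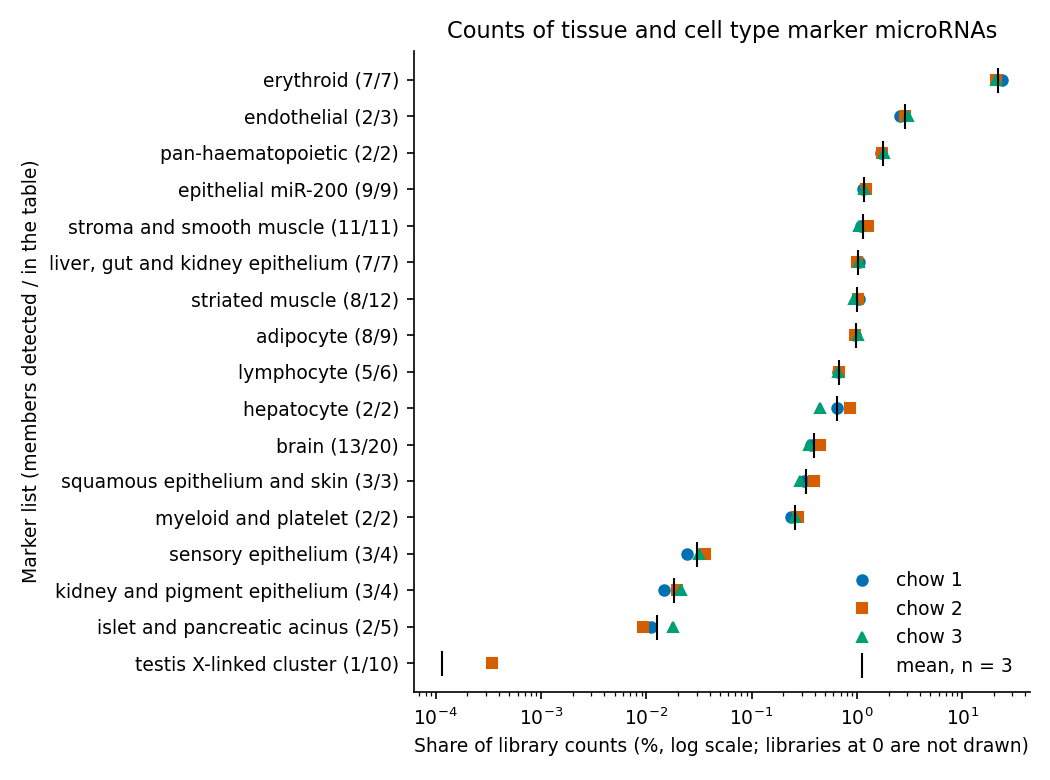
Share of library counts (%, log scale, horizontal axis) of each list of tissue or cell type markers, with the detected members and those in the table in parentheses; points are chow-fed libraries and ticks the mean (n = 3), and libraries at 0 are not drawn. Erythroid markers (21.9%) lie far to the right, hepatocyte markers spread from 0.448 to 0.853%, and the testis list has a point for 1 library only.

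Clustered precursors, which are transcribed together, differed widely in mature counts. The miR-106b cluster held 6.07% ± 0.0380, the steadiest of the clusters in relative terms, with miR-93-5p supplying 67.9%. miR-93-5p exceeded miR-25-3p 2.07-fold, 2.73-fold and 2.88-fold in the 3 libraries. The cluster of miR-144 and miR-451a held 5.90% ± 0.744, and miR-451a exceeded miR-144-5p 23.8 ± 2.89-fold and miR-144-3p 162 ± 10.3-fold. The miR-425 and miR-191 cluster held 3.68% ± 0.0762, with miR-191-5p 4.53 ± 0.289 times as abundant as miR-425-5p. The members of the cluster from miR-17 to miR-92a-1 held 0.923% ± 0.0704, but 50.5% of this was miR-92a-3p, which also comes from Mir92-2 at chrX:52741838-52741928, so that its reads cannot be assigned to the cluster. miR-221 with miR-222 held 0.812% ± 0.0566, miR-221-3p exceeding miR-222-3p 22.0 ± 3.42-fold.

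The 3 libraries resembled each other closely but not to within counting error. Any pair shared 19 or 20 of the 20 most abundant microRNAs and 96 to 98 of the 100 most abundant. Across microRNAs, which are not independent replicates, Pearson's r of log2 levels was 0.972 to 0.976. It covers only the 415 to 439 microRNAs with a count in both libraries of a pair. Spearman's rank correlation over microRNAs with a count in either library was lower, 0.866 to 0.882. For 242 microRNAs with a mean count of at least 10, the median coefficient of variation (CV, the SD as a percent of the mean) over the libraries was 11.3%, against 10.2% from counting alone. For the 42 with a mean count of at least 1000 it was 5.79% against 2.03%. The CV was above that of counting alone in 38 of these 42, and in 64 of the 122 with a mean count from 10 to below 100.

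Some microRNAs varied far more than others of like depth. Among the 120 microRNAs with a mean count of at least 100, miR-9-5p had the largest CV, 42.5%, followed by miR-122-5p with 31.0%, miR-671-5p with 28.5% and miR-203-3p with 26.5%. miR-30c-5p fell next with 24.9%, at 4267 CPM in chow 1, 3049 in chow 2 and 2684 in chow 3, then miR-2137 with 22.2%, miR-22-3p with 22.1%, miR-19b-3p with 22.0%, miR-143-3p with 20.9% and miR-378d with 19.4%. Of these 10, 4 were in tissue lists (miR-9-5p, miR-122-5p, miR-203-3p and miR-143-3p), and all 4 were highest in chow 2 and lowest in chow 3. Of the 10, 7 were lowest in chow 3, while miR-671-5p, miR-2137 and miR-378d were highest there. Over all 120 microRNAs, the highest library was chow 2 in 46, chow 3 in 42 and chow 1 in 32. The lowest was chow 1 in 47, chow 3 in 40 and chow 2 in 33, so the order seen in these 4 was not general. Chow 2 was the highest library in 8 of the 16 lists with a member present in every library, and 4 of these 8 hold the microRNAs just named. Chow 3 had the fewest counts. The part of depth or collection in this was not tested. The steadiest were let-7d-5p with 0.637%, miR-26a-5p with 1.47%, miR-196a-5p with 1.52%, miR-484 with 1.68% and miR-152-3p with 1.69%, although 3 libraries fix a CV only loosely and these values are below those of counting alone.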

How the data were processed

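Small RNA was sequenced from serum vesicles, and the 3 chow-fed wild-type libraries were taken by their labels (225002 to 306974 counts each). The deposited count table holds, for each mature microRNA and library, the authors' whole-number read count. The deposited TPM table matched each count divided by its library total, times 1000000, within 5.00e-05, and was used only for this check. Tables that repeat its known and predicted rows were not used. Per the submitters' processing notes, Bowtie 0.12.2 and the build mm8 were involved, without a stated role. Which microRNA reference and counting program served is not given in the sources used here.

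Shares, CPM, ranks, arm shares and list sums were computed per library in Python 3.11.15 (pandas 2.3.3, numpy 2.4.6, scipy 1.17.1, matplotlib 3.10.9), then given as mean ± SD. The CV and its part from counting were checked on simulated counts, while shares, ranks, arm shares and list sums were not. Arm shares needed 30 counts and the CV a mean count of 10. Sequences and hairpin positions come from RefSeq (GRCm38.p6), matched by name, for 558 of 652 known microRNAs detected.

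The 18 tissue lists, the 10 clusters and the rule for named microRNAs were chosen with earlier results of these data known. The rule named the first 20 by share, the 2 leading members of each list with defining members at 0, both arms of miR-30a, the 8 most even and 8 most uneven precursors with at least 1000 counts, precursors whose arms change order, microRNAs numbered 3000 or above in the first 100, the 10 largest and 5 smallest CVs at a mean count of 100, and the 3 leading predicted ones. Other microRNAs, such as members of clusters and seed families, are named beside a result and were chosen after their values were seen. Alternatives left out each library, pooled the libraries, changed the total, the treatment of identical counts, the minimum count and the scaling.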

Additional observations from a re-analysis of the deposited data

How the results depend on the processing

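Leaving out each library in turn, pooling the libraries and using known microRNAs alone as the total kept every summary value within 1 SD, or within 1.5 times for counts of microRNAs. For mean shares of counts, leaving out a library was no check. Dropping 1 of 3 libraries cannot move their mean by as much as 1 SD. Of 70 summary values recomputed, 53 stayed within the limits of 1 SD or 1.5 times, these leave-one-out shares included, and 17 did not. The median CV was given no SD, so any change in it was counted among the 17. Entering identical counts once raised the miR-16-5p share to 17.4%, the miR-486 value to 8.71%, the AGCAGCA family to 17.8% and the GAGGUAG family to 13.8%, and lowered the 5p share to 66.5% and the erythroid list to 15.2%. Leaving miR-486a-5p and miR-486b-5p out of the total gave 19.0% for miR-16-5p, 19.4% and 15.0% for these families, 63.1% for the 5p share and 7.09% for the erythroid list. Of the 16 other lists, 9 and 13 moved by more than 1 SD under these settings. Asking for 10 counts left 247.3 microRNAs per library and 220 in all 3. Adding 1 count to each arm gave a median major arm of 96.3%. The median CV was 11.9% with size factors, 57.6% with no minimum count and 7.45% with a minimum of 100. No paired analysis was possible because a single group was described and no result comes from a test. At 225002 to 306974 counts per library, 3 counts correspond to 9.77 to 13.3 CPM, so that microRNAs at 0 may be present below that level.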

Other observations

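Some of the cargo belongs to no marker list and carries high-numbered names. microRNAs numbered 3000 or above, described late and often known from few studies, held 1.69% ± 0.108 of counts (SD, n = 3), with 155 detected. miR-6240 made up 89.5% of that share and ranked 15, with 4468, 4244 and 3699 counts. Its RefSeq sequence is 26 bases long, and its hairpin at chr5:114851948-114852064 (GRCm38.p6) overlaps no other gene on its strand. The only other one among the first 100 was miR-5126, with 205, 151 and 150 counts. The 40 predicted microRNAs detected held 0.0940% ± 0.0225. The leading one, listed as 13_8063, had 71, 69 and 118 counts, or 231, 235 and 524 CPM, and was highest in the library with the fewest counts. The next were 15_11735 and 5_24224, which had the same 41, 45 and 37 counts, and 6_27403 with 36, 17 and 24.

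The sequences of the cargo were also described. Of 329 microRNAs with a RefSeq sequence that were present in all 3 libraries, 44.7% begin with U. By number this compares with 40.9% of all 1679 mature names in RefSeq and 42.5% of the 916 microRNAs of the count table with a sequence. Those of the 329 that begin with U held 66.5% of the counts of the 329. Those beginning with G were 8.81% of the 329 and held 1.09% of counts. A length of 22 bases was found in 56.5% and held 68.1% of counts. The motifs GGAG and CCCU, which have been linked to vesicle loading, were searched on the mature strand. GGAG occurred in 9.42% of the 329, in 12.1% of the 916 and in 14.2% of RefSeq names, and its carriers held 1.27% of counts. CCCU occurred in 9.73%, 10.8% and 11.4% of these, and its carriers, led by miR-10a-5p, held 3.03%. Single abundant members such as miR-16-5p weigh heavily on these shares of counts.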
